A study of Mus musculus with 37 samples.

Results

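Messenger RNAs of 10 genes that hold the mouse oocyte in meiotic arrest and release it were followed from the fully grown oocyte to the late 2-cell embryo, with and without BAP1. The genes were chosen by symbol: Gpr3, Mos, Wee2, Cdc25b, Cdk1, Ccnb1, Ccnb2, Ccnb3, Plk1 and Fbxo43. All 10 were found, once each, among 55401 genes in the deposited tables, and all 10 passed the filter for testing in the early libraries. Control mice carried Bap1 flox/flox without a recombinase. Knockout mice carried Gdf9-iCre and Bap1 flox/flox, in which the oocyte-expressed Gdf9 promoter drives the recombinase, so the deletion is made in oocytes and both genotypes carry the floxed allele. Total RNA was sequenced at 5 stages: the fully grown oocyte (FGO), the MII egg (MII), the late 1-cell embryo (L1C), the early 2-cell embryo (E2C) and the late 2-cell embryo (L2C). There were 3 control and 3 knockout libraries in E2C, and 2 control and 3 knockout libraries at each of the other 4 stages. Embryos at the early stages came from these eggs and sperm of B6 males, so knockout embryos came from eggs with the deletion and received a wild-type paternal allele. Poly(A) libraries from embryonic day 6.5, from crosses with PWK males, covered the epiblast (EPI) and the visceral endoderm (VE), with 2 control and 2 knockout libraries of each, and the extraembryonic ectoderm (EXE), with 1 control and 2 knockout libraries. The ages of the females and the number of oocytes or embryos in each library were not given in the sources used here.

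As background, the fully grown oocyte is held in meiotic prophase because GPR3, a receptor that activates the stimulatory G protein, keeps cyclic AMP high, and protein kinase A in turn favours WEE2, the oocyte kinase that inhibits CDK1, over CDC25B, the phosphatase that activates it. Resumption follows when CDK1 bound to B-type cyclins becomes active. The egg then stops at metaphase II, where MOS starts a MAP kinase cascade and EMI2 (the product of Fbxo43) inhibits the anaphase-promoting complex, and fertilization ends that arrest when PLK1 and calcium signalling lead to the destruction of EMI2. Much of this control acts on proteins and on translation of stored mRNA, neither of which was measured here.

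The values are FPKM, fragments per kilobase of transcript scaled within each library, so a value can be compared between genes but is a share of the library's RNA. In bulk samples, less RNA per cell and fewer cells cannot be told apart. Log2 differences below are on the log2(FPKM + 1) scale with their SE, and adjusted p values are from limma with Benjamini-Hochberg adjustment over all 15184 genes tested in the early libraries, with 0.05 as the threshold. The labels do not say that libraries of a group came from separate animals, so the p values measure the spread between these libraries, which may be technical. Bap1 itself was between 16.3 and 29.9 FPKM in the 11 early control libraries and between 3.76 and 11.7 FPKM in the 15 knockout libraries, with no overlap at any early stage. The summed FPKM of a library ranged from 300668 to 430784, and the read depth is unknown. In MII, L1C, E2C and L2C every control sum was above every knockout sum, with 404518 to 430784 against 371188 to 381737 in L2C. The gene Gm23935 alone held 20.2% to 23.1% of the sum in control L2C, 15.3% to 17.3% in knockout L2C and 5.98% to 8.29% in FGO. Scaling without Gm23935, used below, leaves it out of the sum. Of 10 oocyte markers (Zp1, Zp2, Zp3, Gdf9 and others), 9 were in the table and all 9 were above 1 FPKM in every early group. The 10 granulosa and cumulus markers summed to between 7.51 and 9.04 FPKM in control FGO and between 3.05 and 4.18 FPKM in knockout FGO. Only 1 of the 10 averaged at least 1 FPKM in each of these groups. Cyp19a1 reached 6.72 FPKM, Amh and Fshr stayed at or under 0.32 FPKM, and Lhcgr was listed at 0 in every early library.

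Stored oocyte mRNAs are controlled partly through the 3′ UTR, where the hexamer AATAAA directs polyadenylation and cytoplasmic polyadenylation elements (CPE) can switch translation on. The 3′ ends of 3 genes are shown because their mRNAs took different courses after the egg stage. Mos was nearly lost, and Ccnb1 was held until the early 2-cell stage. Wee2 rose until the early 2-cell stage, and in the control it then fell, to a mean of 171 FPKM in L2C beside 173 FPKM in MII. Each is 30 bases ending at the polyadenylation hexamer, from GRCm38 with GENCODE M21, with the hexamer and any CPE (TTTTAT or TTTTAAT, on the sense strand) in capitals.
Mos, chr4:3870673-3870702, minus strand: taccactagggcatatttttaggaAATAAA
Ccnb1, chr13:100778668-100778697, minus strand: gcaatatggagactttatgttgctAATAAA
Wee2, chr6:40466764-40466793, plus strand: cataTTTTAATccagatcattgtaAATAAA
The Wee2 window holds a CPE that begins 20 bases before its hexamer, and the other windows hold neither spelling. Other forms of the element were not searched, and a link between these letters and the mRNA levels was not tested. Over whole 3′ UTRs, these letters occurred 6 times in Fbxo43, 4 times in Ccnb1, 2 times each in Cdk1, Wee2 and Gpr3, and 1 time each in Ccnb2 and Ccnb3. They did not occur in those of Mos, Cdc25b and Plk1. Of 21073 genes with an annotated 3′ UTR, 54.61% held at least 1 such element, beside 7 of the 10 genes here. UTR lengths differ: the Mos 3′ UTR is 126 bases and that of Cdk1 is 3352 bases, against a median of 856 bases over all genes.

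Promoters of the B-type cyclins and Cdk1 are shown because Cdk1 increased from E2C to L2C in the control while the 3 cyclins decreased. Cell cycle promoters commonly hold the CCAAT box bound by NF-Y and the cell cycle homology region TTTGAA. The 150 bases before the annotated start are given from RefSeq on GRCm38.p6, with CCAAT and TTTGAA on either strand in capitals (ATTGG is CCAAT on the other strand).
Cdk1, chr10:69352913-69353062, minus strand: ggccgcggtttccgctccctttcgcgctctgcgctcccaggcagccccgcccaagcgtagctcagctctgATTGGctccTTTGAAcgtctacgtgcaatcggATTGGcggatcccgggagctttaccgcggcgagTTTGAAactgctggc
Ccnb1, chr13:100786487-100786636, minus strand: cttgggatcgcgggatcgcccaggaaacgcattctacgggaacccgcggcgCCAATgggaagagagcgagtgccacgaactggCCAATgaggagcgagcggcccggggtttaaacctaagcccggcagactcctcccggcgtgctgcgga
Ccnb2, chr9:70421555-70421704, minus strand: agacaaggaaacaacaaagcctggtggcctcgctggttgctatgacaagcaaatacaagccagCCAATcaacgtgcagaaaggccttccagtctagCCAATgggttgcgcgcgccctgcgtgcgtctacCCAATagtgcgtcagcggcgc
Ccnb3, chrX:7041620-7041769, minus strand: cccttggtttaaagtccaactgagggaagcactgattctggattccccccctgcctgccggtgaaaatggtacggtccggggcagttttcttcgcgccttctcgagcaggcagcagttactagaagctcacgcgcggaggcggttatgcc
The printed stretches hold CCAAT 2 times in Cdk1, 2 times in Ccnb1 and 3 times in Ccnb2, and TTTGAA 2 times in Cdk1. The Ccnb3 stretch holds neither set of letters. In the same 150 bases before the start, CCAAT was found in 24.5% and TTTGAA in 9.07% of 32851 promoters. In the full 250 bases before the start, where these shares were 33.85% and 15.99%, Cdk1 held CCAAT 3 times and TTTGAA 2 times, and Ccnb2 held TTTGAA 1 time. RefSeq windows were found for 8 of the 10 genes, Mos and Fbxo43 being the others.

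The genes are spread over the genome. On GRCm38 with GENCODE M21, Mos lies at chr4:3870657-3872105 and Gpr3 at chr4:133209340-133212536, and the transcripts used for both have 1 exon. Ccnb1 lies at chr13:100778650-100786570 (9 exons), Ccnb2 at chr9:70407692-70421547 (9 exons), Ccnb3 at chrX:6979652-7041619 (14 exons) and Cdk1 at chr10:69335146-69352938 (8 exons). Cdc25b lies at chr2:131186949-131198497 (16 exons), Wee2 at chr6:40439088-40466813 (12 exons), Fbxo43 at chr15:36150060-36164884 (5 exons) and Plk1 at chr7:122159439-122169873 (10 exons). Cdc25b, Wee2 and Plk1 are on the plus strand and the others on the minus strand.

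In control FGO, Ccnb1 was the most abundant of the 10 mRNAs at 179 FPKM ± 2.0 (SD, n = 2). Wee2 followed at 150 FPKM ± 7.3, Plk1 at 86.6 FPKM ± 1.1 and Mos at 78.8 FPKM ± 1.4. Fbxo43 was at 39.0 FPKM ± 0.31, Ccnb2 at 31.8 FPKM ± 1.5 and Cdc25b at 20.1 FPKM ± 0.51, and the lowest were Ccnb3 at 16.4 FPKM ± 1.6, Gpr3 at 15.1 FPKM ± 2.5 and Cdk1 at 12.4 FPKM ± 0.48. The values of each gene lay apart from those of its neighbour in this order, except that Ccnb3 and Gpr3 overlapped. By control L2C the order was Wee2, Ccnb1, Cdk1, Plk1, Gpr3, Fbxo43, Cdc25b, Ccnb2, Ccnb3 and Mos, with only Cdk1 and Plk1 overlapping as neighbours. Cdk1 thus moved from last to the third place and Mos from the fourth to last.

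**Figure D1:**
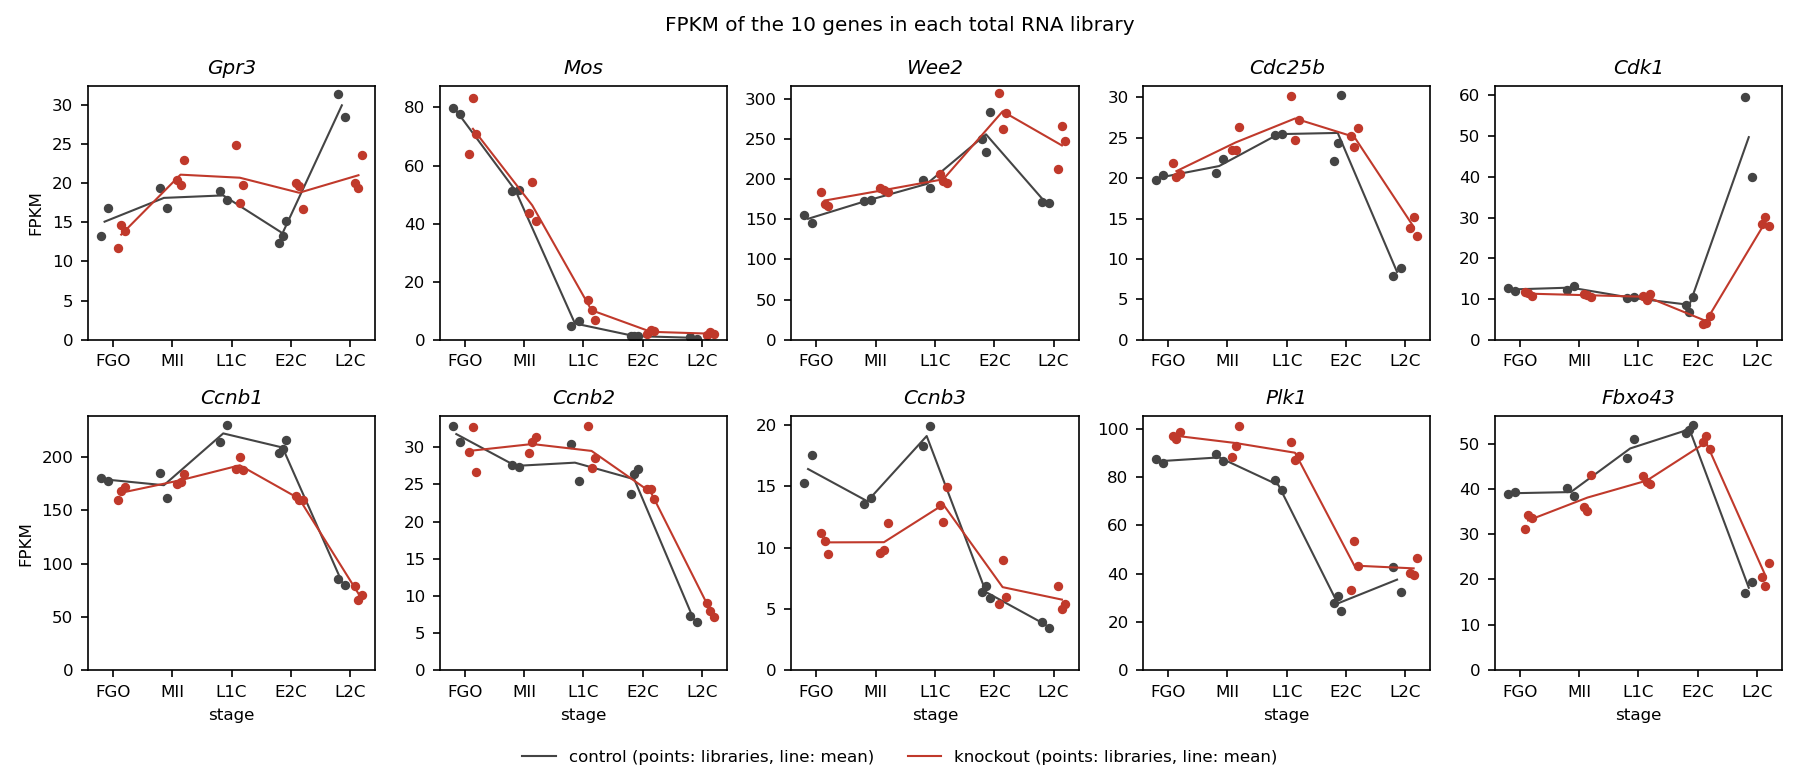
FPKM (linear axes from 0) of each of the 10 genes by stage, with a point for each total RNA library and a line through the group means. Control libraries are grey and knockout libraries red. Mos falls from 79.8 and 77.9 FPKM in control FGO to 1.03 and 0.299 FPKM in control L2C, and Cdk1 rises to 59.5 and 40.0 FPKM in control L2C against 27.9 to 30.3 FPKM in the knockout.

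Changes between consecutive stages were counted within each genotype. From FGO to MII, 0 of the 10 genes changed in the control, where 5.39% of all genes were called by limma, and 3 changed in the knockout (Mos, Gpr3 and Cdc25b), where 13.8% were called. The control Mos mean went from 78.8 to 51.3 FPKM (-0.61 on the log2 scale), which passed with only these stages fitted (adjusted p = 0.0417). From MII to L1C, 6 changed in the control (Mos, Ccnb1, Ccnb3, Fbxo43, Cdc25b and Cdk1) beside 25.4% of all genes, and 2 changed in the knockout (Mos and Ccnb3) beside 16.4%. When single libraries were left out, these counts ran from 2 to 4 and from 1 to 4, beside 2434 to 3034 and 1664 to 2673 of all genes. With no library left out, 3862 and 2491 of all genes were called. From L1C to E2C, Mos, Ccnb3, Plk1 and Wee2 changed in the control, 4 in all (47.2% of all genes), and these with Cdk1 and Ccnb1, 6 in all, in the knockout (41.7%). From E2C to L2C, 9 changed in the control (51.7%), all but Mos, and 5 in the knockout (45.5%): Cdk1, Ccnb1, Ccnb2, Cdc25b and Fbxo43. From FGO to L2C, 9 changed in the control (71.2%), all but Wee2, and 10 in the knockout (72.1%).

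**Figure D2:**
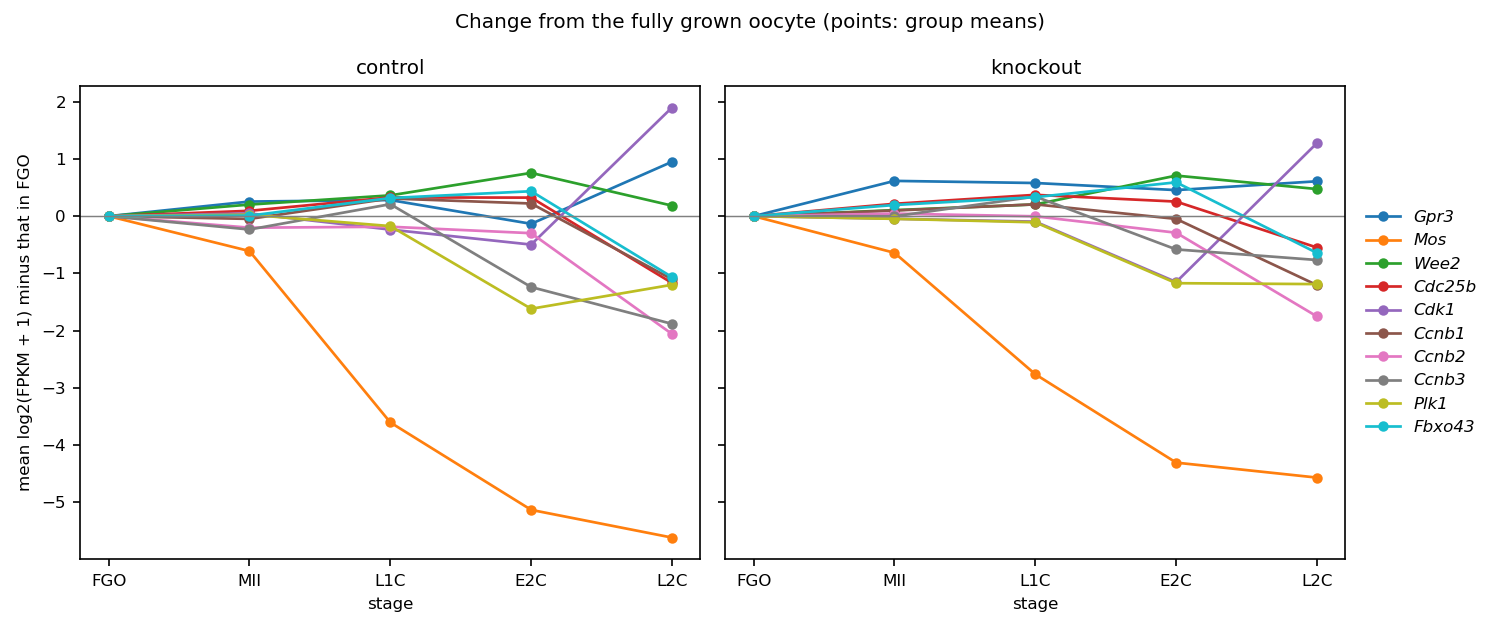
Mean log2(FPKM + 1) of each gene minus its mean in FGO (y axis) at the 5 stages (x axis), for control libraries on the left and knockout libraries on the right. Mos is at -5.62 in the control and -4.57 in the knockout in L2C, whereas Cdk1 ends 1.90 above FGO in the control and 1.28 above in the knockout.

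The genotypes were compared as knockout minus control at each stage. In FGO 13.9% of all genes were called in either direction, 3.91% higher and 9.97% lower, and of the 10 genes 1 was higher (Wee2) and 2 were lower (Ccnb3 and Fbxo43). In MII 16.8% were called, 6.57% higher and 10.2% lower, and of the 10 genes 0 were higher and 1, Ccnb3, was lower. In L1C 17.6% were called, 7.60% higher and 10.0% lower, and 1 was higher (Mos) and 2 were lower (Ccnb1 and Ccnb3). In E2C 13.5% were called, 6.20% higher and 7.28% lower, and 1 was higher (Plk1) and 2 were lower (Cdk1 and Ccnb1). In L2C 34.2% were called, 17.0% higher and 17.2% lower, and 4 were higher (Cdc25b, Wee2, Mos and Ccnb3) and 1, Cdk1, was lower. For the difference of the effect between FGO and MII, limma called 0 of the 10 genes and 0% of all genes, with 1678 at an unadjusted p under 0.05, and between MII and L1C 0 of the 10 and 0.198% of all. The median log2 difference of the 10 genes was -0.11 in FGO, 0.07 in MII, 0.06 in L1C, 0.02 in E2C and 0.19 in L2C, beside medians between 0 and 0.03 over all genes tested. Counts of genes whose knockout and control libraries did not overlap were 6 of 10 in FGO, MII and E2C, 5 in L1C and 7 in L2C. The shares of all genes without overlap were 41.8% in FGO, 41.7% in MII, 43% in L1C, 29.7% in E2C and 56.8% in L2C. E2C has 3 control libraries and the other stages 2, so its share and count are not directly comparable with theirs.

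**Figure D3:**
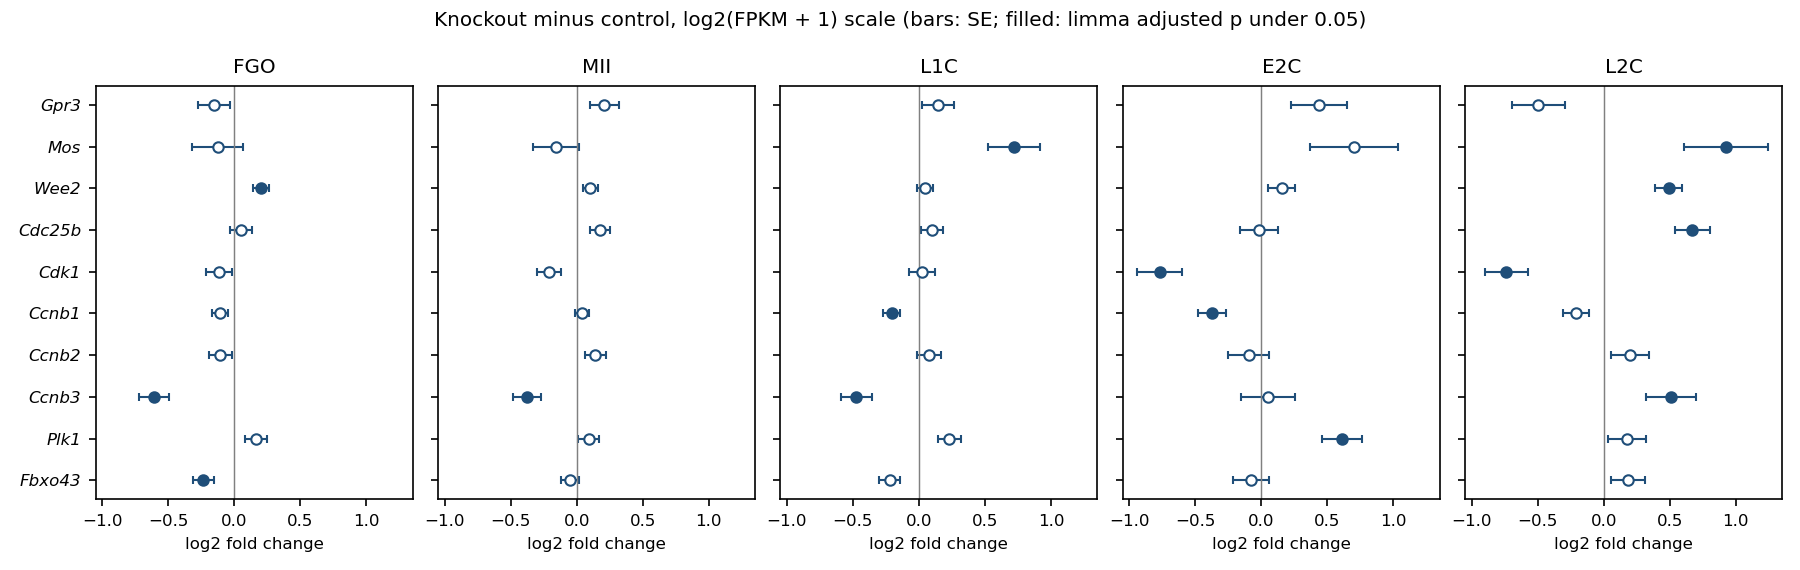
Log2 difference, knockout minus control, of each gene at each of the 5 stages (x axis, log2(FPKM + 1) scale), with bars of 1 SE and filled points where the limma adjusted p was under 0.05. Ccnb3 lies at -0.61, -0.38 and -0.47 in FGO, MII and L1C and at 0.51 in L2C. Cdk1 lies at -0.77 in E2C and -0.74 in L2C.

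Summed levels of several marker lists did not overlap between genotypes. The 7 markers of 2-cell genome activation (Zscan4c, Zscan4d, Zscan4f, Zfp352, Usp17lc, Tcstv1 and Tcstv3) summed to between 259 and 363 FPKM in control E2C and between 104 and 241 FPKM in knockout E2C. In L2C the order was the opposite, with 138 to 144 FPKM in control and 416 to 523 FPKM in knockout libraries. All 7 were above 1 FPKM in each of these groups. In FGO, where 3 of the 7 averaged at least 1 FPKM, the sum was 30.7 to 33.0 FPKM in control and 19.4 to 20.5 FPKM in knockout libraries. The 9 oocyte markers summed to between 1820 and 1842 FPKM in control L1C and between 1844 and 2647 FPKM in knockout L1C, and to between 515 and 535 FPKM in control L2C and between 830 and 970 FPKM in knockout L2C. None of the 9 was at 0 in these groups. In FGO the oocyte sum went the other way, with 4676 to 4817 FPKM in control and 4202 to 4578 FPKM in knockout libraries. The granulosa and cumulus sum was lower in the knockout at each later stage too: 4.76 to 6.01 against 1.39 to 1.77 FPKM in MII, 4.81 to 6.50 against 1.72 to 2.19 in L1C, 4.36 to 6.06 against 1.49 to 1.87 in E2C, and 1.78 to 2.53 against 0.55 to 1.44 in L2C, with 3 to 6 of the 10 markers at 0 in every library of a group. Only 1 of the 10 averaged at least 1 FPKM in these groups, and 0 did in knockout L2C, so the sum mostly follows few genes. The 5 epiblast markers, of which 2 exceeded 1 FPKM, summed to 63.7 to 74.7 FPKM in control L2C and 89.4 to 111 FPKM in knockout L2C. In L1C their sum was lower in the knockout, at 112 to 124 FPKM against 126 to 131 FPKM. Of the 5 extraembryonic ectoderm markers, 2 exceeded 1 FPKM in L2C. The 5 summed to 13.9 to 19.3 FPKM in control L2C and 6.58 to 10.2 FPKM in knockout L2C. In FGO, MII and L1C, where 1 of the 5 exceeded 1 FPKM, their sum was higher in the knockout. It was 44.7 to 45.4 FPKM in control FGO and 45.9 to 51.5 FPKM in knockout FGO. In MII it was 27.6 to 31.9 against 32.4 to 36.1 FPKM, and in L1C 11.95 to 16.01 against 16.1 to 20.8 FPKM. The genotypes overlapped in E2C. The part of these differences in the values of the 10 genes was not tested.

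Gpr3, the receptor that maintains prophase arrest, was present at every stage, and its step from E2C to L2C differed between genotypes. Control Gpr3 values were 13.3 and 16.8 FPKM in FGO, 19.3 and 16.9 in MII, 19.0 and 17.8 in L1C, 12.4, 13.3 and 15.2 in E2C, and 31.4 and 28.4 in L2C. Knockout Gpr3 values were 11.7, 14.7 and 13.8 FPKM in FGO, 20.4, 19.8 and 23.0 in MII, 24.8, 17.4 and 19.8 in L1C, 20.002, 19.6 and 16.7 in E2C, and 20.03, 19.3 and 23.6 in L2C. In the control, Gpr3 rose in the step from E2C to L2C, by a log2 change of 1.09 ± 0.22 (adjusted p = 0.000224), and all L2C libraries lay above all those of earlier stages. In the knockout the E2C to L2C step was 0.15 ± 0.20 (adjusted p = 0.567). From FGO to MII the knockout rose by 0.62 ± 0.10 (adjusted p = 0.000321) and the control change was 0.26 ± 0.13 (adjusted p = 0.311), and the difference between these steps did not pass (0.36 ± 0.16, adjusted p = 0.415).

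The genotype difference of Gpr3 did not pass at any stage. In E2C every knockout library was above every control library (0.44 ± 0.21, adjusted p = 0.196) and in L2C every one was below (-0.49 ± 0.20, adjusted p = 0.0625). The difference between these 2 effects passed, at -0.93 ± 0.29 (adjusted p = 0.0287, beside 18.9% of all genes called for the same difference). The call was lost without E2C control replicate 1 or 2, E2C knockout replicate 1 or 2, L2C control replicate 1 or 2, or L2C knockout replicate 2 (adjusted p 0.0547 to 0.103), with no filter on low genes (0.139) and with each library scaled to the same sum (0.0505). The L2C difference itself passed with only the L2C libraries fitted (adjusted p = 0.0175), with 1 common spread (0.0074) and when genes averaging under 5 FPKM were left out (0.0286), and the E2C difference passed with 1 common spread (0.0124). Gpr3 overlaps Cd164l2 on the opposite strand, which was at 8.22 to 93.0 FPKM, and whether counting used the strand is not given in the sources used here.

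Mos, the kinase of metaphase II arrest, showed the largest change of the 10 genes over development. It was at 79.8 and 77.9 FPKM in control FGO and at 63.8, 83.2 and 70.8 FPKM in knockout FGO, and in MII at 51.2 and 51.4 FPKM in control and 43.7, 54.2 and 40.9 FPKM in knockout eggs. The genotypes overlapped at both stages. The change from FGO to MII passed in the knockout (-0.64 ± 0.16, adjusted p = 0.0115), but not without FGO knockout replicate 2 (0.068) or with 1 common spread (0.0912). After fertilization it dropped to 4.75 and 6.47 FPKM in control L1C and to 13.7, 10.1 and 6.64 FPKM in knockout L1C. The log2 change from MII to L1C was -2.996 ± 0.20 in the control (adjusted p = 9.94e-10) and -2.12 ± 0.16 in the knockout (adjusted p = 1.21e-08), which left 10.9% of the MII mean in the control and 22.0% in the knockout. It fell again from L1C to E2C, with changes of -1.53 ± 0.28 in the control and -1.54 ± 0.27 in the knockout.

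The remainder of Mos was higher in knockout L1C and L2C. Every knockout library was above every control library in L1C, in E2C (1.26, 1.23 and 1.33 FPKM in control and 1.99, 3.31 and 2.91 FPKM in knockout) and in L2C (1.03 and 0.299 FPKM in control and 1.69, 2.53 and 2.08 FPKM in knockout). The log2 difference passed in L1C (0.72 ± 0.20, adjusted p = 0.0135) and in L2C (0.92 ± 0.32, adjusted p = 0.0284) and not in E2C (0.70 ± 0.33, adjusted p = 0.189, or 0.012 with 1 common spread). The L1C call was lost without control replicate 1 (adjusted p = 0.200) or knockout replicate 1 (0.0594), with only the L1C libraries fitted (0.113) and with 1 common spread for all stages (0.0562). That in L2C was lost without control replicate 2 (0.299), knockout replicate 2 (0.0955) or knockout replicate 3 (0.0733) and with no filter on low genes (0.219), at levels near the filter of 1 FPKM. The knockout effect was larger in L2C than in FGO by 1.05 ± 0.37 (adjusted p = 0.0376, beside 29.8% of all genes called). That call was lost without any of FGO control replicates 1 and 2, FGO knockout replicates 1 and 3, L2C control replicate 2, and L2C knockout replicates 2 and 3 (adjusted p 0.0504 to 0.259), and with no filter (0.212). The difference between the effects in L1C and MII was 0.87 ± 0.26 and did not pass (adjusted p = 0.138). Without L1C knockout replicate 3 it did (1.12, adjusted p = 0.0204).

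Wee2, the oocyte kinase that inhibits CDK1, was the most abundant of the 10 mRNAs from E2C on in both genotypes. In knockout FGO, MII and L1C its mean was also the highest, but its libraries overlapped those of Ccnb1. Control Wee2 values were 156 and 145 FPKM in FGO, 173 and 174 in MII, 199 and 189 in L1C, 249.3, 234 and 284 in E2C, and 171 and 171 in L2C. Knockout Wee2 values were 183, 169 and 167 FPKM in FGO, 188, 187 and 184 in MII, 207, 197 and 195 in L1C, 308, 262 and 283 in E2C, and 213, 265 and 247 in L2C. Both genotypes were highest in E2C, after a rise from L1C of 0.39 ± 0.09 in the control (adjusted p = 0.000903) and 0.50 ± 0.08 in the knockout (adjusted p = 4.8e-05). Control embryos then fell by 0.57 ± 0.11 to L2C (adjusted p = 0.000118), and the knockout change was -0.23 ± 0.10 (adjusted p = 0.0543). The knockout fall passed with 1 common spread (0.0161), with each library scaled to the same sum (-0.38, 0.00101), with median centring (-0.54, 2.61e-05), with scaling without Gm23935 (-0.32, 0.00602), with genes averaging under 5 FPKM left out (0.041), and without E2C knockout replicate 2 (0.0373) or L2C knockout replicate 2 (0.0233). The difference between the steps was 0.34 ± 0.14 (adjusted p = 0.115), and it passed with 1 common spread (0.0372) and without L2C knockout replicate 1 (0.036).

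In L2C all 3 knockout libraries had more Wee2 than both controls, a log2 difference of 0.49 ± 0.10 (adjusted p = 0.00064), which held under every alternative and left-out library tried. In FGO the knockout was also higher, by 0.20 ± 0.06 (adjusted p = 0.0292). The FGO call was lost without control replicate 1 (adjusted p = 0.0523), control replicate 2 (0.303) or knockout replicate 1 (0.0605), with only the FGO libraries fitted (0.171) and with 1 common spread (0.251). In MII every knockout library was above both controls. That difference did not pass (0.10 ± 0.05, adjusted p = 0.221), but did with median centring (0.21, adjusted p = 0.00511). The net change from FGO to L2C depended on scaling: 0.18 ± 0.09 in the control (adjusted p = 0.0738), -0.25 (adjusted p = 0.00711) with each library scaled to the same sum, and 0.29 (adjusted p = 0.0042) with median centring. Scaling to the same sum moved the median of all genes in this comparison to -0.60, from -0.18.

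Cdc25b, the phosphatase that opposes WEE2 and starts meiotic resumption, stayed between 19.7 and 30.3 FPKM through E2C and then fell. Control Cdc25b values were 19.7 and 20.4 FPKM in FGO, 20.6 and 22.4 in MII, 25.4 and 25.5 in L1C, 22.1, 24.4 and 30.3 in E2C, and 7.85 and 8.93 in L2C. Knockout Cdc25b values were 21.9, 20.2 and 20.5 FPKM in FGO, 23.5, 23.5 and 26.3 in MII, 30.2, 24.7 and 27.2 in L1C, 25.3, 23.8 and 26.2 in E2C, and 13.8, 15.3 and 12.8 in L2C. The E2C to L2C step was -1.49 ± 0.14 in the control (adjusted p = 2.65e-08) and -0.80 ± 0.13 in the knockout (adjusted p = 3.43e-05). The genotypes overlapped in FGO, L1C and E2C, and in MII the lowest knockout library was just above the highest control, a difference that passed with each library scaled to the same sum (0.21, adjusted p = 0.0349) and with median centring (0.28, adjusted p = 0.00878). In L2C all knockout libraries were above both controls (0.67 ± 0.13, adjusted p = 0.00059).

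This L2C difference in Cdc25b held under every alternative and left-out library tried. The effect in L2C exceeded that in E2C by 0.69 ± 0.20 (adjusted p = 0.0168) and that in FGO by 0.62 ± 0.16 (adjusted p = 0.00545). Without L2C control replicate 1 the adjusted p values were 0.0826 and 0.0529, and without E2C control replicate 3 the first was 0.0553. With no filter on low genes the first was 0.0685. Smaller rises of Cdc25b, from MII to L1C in the control (0.23 ± 0.09, adjusted p = 0.04997) and from FGO to MII in the knockout (0.22 ± 0.07, adjusted p = 0.0422), were each lost when single libraries were left out. In the control, each of the 4 libraries left out in turn ended the call (adjusted p 0.0633 to 0.258). In the knockout, all but FGO knockout replicate 1 did (adjusted p 0.0529 to 0.153).

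Cdk1, the kinase of maturation-promoting factor, was low in oocytes and eggs and increased in the 2-cell embryo, to a lower level in the knockout. Control Cdk1 values were 12.7 and 12.01 FPKM in FGO, 12.3 and 13.3 in MII, 10.2 and 10.5 in L1C, 8.44, 6.81 and 10.5 in E2C, and 59.5 and 40.0 in L2C. Knockout Cdk1 values were 11.7, 11.5 and 10.8 FPKM in FGO, 11.4, 10.99 and 10.5 in MII, 10.6, 9.81 and 11.2 in L1C, 3.89, 4.16 and 5.76 in E2C, and 28.5, 30.3 and 27.9 in L2C. The genotypes overlapped in L1C, and at the other 4 stages every knockout library was below every control library. The difference did not pass in FGO (-0.12 ± 0.10, adjusted p = 0.51) or MII (-0.21 ± 0.09, adjusted p = 0.115). The control fell from MII to L1C (-0.28 ± 0.10, adjusted p = 0.0475), a call that each of the 4 libraries left out in turn ended (adjusted p 0.0672 to 0.246), as did median centring (0.423), 1 common spread (0.357) and a pseudocount of 0.1 (0.0581).

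The log2 difference of Cdk1 between genotypes was -0.77 ± 0.17 in E2C (adjusted p = 0.00402) and -0.74 ± 0.16 in L2C (adjusted p = 0.00124), and the ratio of the mean FPKM, knockout to control, was 0.537 in E2C and 0.581 in L2C (in L1C it was 1.02). With only the E2C libraries fitted, the adjusted p was 0.0543. Without L2C control replicate 1, the library at 59.5 FPKM, the L2C difference was -0.46 and no longer passed (adjusted p = 0.0768). From L1C to E2C, Cdk1 fell in the knockout by 1.06 ± 0.14 (adjusted p = 2.12e-06), whereas the control change was -0.26 ± 0.14 (adjusted p = 0.14), which passed when libraries were scaled to the same sum (-0.46, adjusted p = 0.0167) and without E2C control replicate 3 (-0.40, adjusted p = 0.0472). The difference between these steps was -0.79 ± 0.20 (adjusted p = 0.0287, beside 3.35% of all genes called). That call was lost without E2C control replicate 1 or 3, E2C knockout replicate 1 or 2, or L1C control replicate 1 or 2 (adjusted p 0.0642 to 0.0966), and with only these stages fitted (0.0965).

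From E2C to L2C, Cdk1 rose in both genotypes, by 2.40 ± 0.17 in the control (adjusted p = 3.86e-10) and 2.43 ± 0.16 in the knockout (adjusted p = 1.44e-10). The means rose 5.80-fold and 6.28-fold, and the difference between the steps was 0.03 ± 0.23 (adjusted p = 0.954). The effect in L2C was lower than that in FGO by 0.62 ± 0.19 on the log2 scale (adjusted p = 0.0166). Without L2C control replicate 1 this was -0.34 (adjusted p = 0.260), and scaling each library to the same sum (0.0666) or dropping the filter (0.0836) also ended the call.

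Ccnb1, the main mitotic and meiotic B-type cyclin, was held at a high level through E2C and then fell in both genotypes. Control Ccnb1 values were 181 and 178 FPKM in FGO, 185 and 162 in MII, 215 and 230 in L1C, 204, 208 and 216 in E2C, and 85.6 and 80.4 in L2C. Knockout Ccnb1 values were 160, 168 and 172 FPKM in FGO, 175, 176 and 184 in MII, 189, 201 and 188 in L1C, 164, 160 and 160 in E2C, and 79.0, 65.8 and 70.7 in L2C. The control rose from MII to L1C by 0.36 ± 0.06 (adjusted p = 0.000247), and the knockout change was 0.11 ± 0.05 (adjusted p = 0.18, or 0.21 with adjusted p = 0.0278 under median centring), a difference between steps of -0.25 ± 0.08 (adjusted p = 0.174). From E2C to L2C the change was -1.32 ± 0.11 in the control and -1.16 ± 0.10 in the knockout. The knockout also fell from L1C to E2C, a call lost without E2C knockout replicate 2 or 3 (adjusted p 0.0516 and 0.0635) and with median centring (-0.06, adjusted p = 0.664).

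All knockout libraries of Ccnb1 were below all controls at every early stage except MII. The difference passed in L1C (-0.21 ± 0.06, adjusted p = 0.022) and in E2C (-0.37 ± 0.10, adjusted p = 0.0204). That in L2C passed with 1 common spread (-0.21, adjusted p = 0.0293) and without L2C knockout replicate 1 (-0.28, adjusted p = 0.0385). The L1C call was lost without control replicate 2 (adjusted p = 0.265) or knockout replicate 3 (0.0587), with only the L1C libraries fitted (0.0689), with 1 common spread (0.105), and with another scaling or centring (0.0902 to 0.137). The E2C call was lost without control replicate 1, 2 or 3 or knockout replicate 2 (adjusted p 0.0548 to 0.0642) and with another scaling or centring (0.0827 to 0.176). Of the words of 50 bases in Ccnb1, 23.4% occur in other genes, among them the pseudogenes Ccnb1-ps, Gm12856, Gm8416 and Gm4870. Gm8416 was at 16.2 to 42.8 FPKM in FGO and at 4.53 to 8.66 FPKM in L2C, so the split of reads between it and Ccnb1 is uncertain.

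Ccnb2, a B-type cyclin that can stand in for cyclin B1 in oocytes, fell from E2C to L2C in both genotypes. Its values ran from 23.1 to 32.9 FPKM over FGO, MII, L1C and E2C in both genotypes. In L2C it was at 7.25 and 6.48 FPKM in control and 9.05, 7.94 and 7.21 FPKM in knockout libraries, after changes from E2C of -1.76 ± 0.16 (adjusted p = 6.83e-09) and -1.46 ± 0.14 (adjusted p = 3.53e-08). The genotype difference did not pass at any early stage, its estimates lying between -0.10 ± 0.09 in FGO and 0.20 ± 0.14 in L2C. With median centring the MII difference passed (0.25, adjusted p = 0.0377, against 0.14 ± 0.08), and with each library scaled to the same sum the effect in L2C minus that in FGO passed (0.46, adjusted p = 0.0434). Across the 26 early libraries the log2 values of Ccnb1 and Ccnb2 had a Pearson correlation of 0.93, which their shared stages can set.

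Ccnb3, the cyclin needed for anaphase of meiosis I, was lower in knockout FGO, MII and L1C, and its knockout effect in L2C differed from that in FGO. Control Ccnb3 values were 15.3 and 17.6 FPKM in FGO, 13.5 and 14.03 in MII, 18.3 and 19.9 in L1C, 6.34, 6.85 and 5.91 in E2C, and 3.96 and 3.47 in L2C. Knockout Ccnb3 values were 11.2, 10.6 and 9.52 FPKM in FGO, 9.58, 9.77 and 11.99 in MII, 13.5, 12.1 and 14.96 in L1C, 5.39, 8.98 and 5.95 in E2C, and 6.89, 4.95 and 5.42 in L2C. In FGO, MII and L1C every knockout library was below every control, in E2C they overlapped, and in L2C every knockout library was above both controls.

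The Ccnb3 difference was -0.61 ± 0.12 in FGO (adjusted p = 0.000883), -0.38 ± 0.10 in MII (adjusted p = 0.0145) and -0.47 ± 0.12 in L1C (adjusted p = 0.00716), and the ratios of the mean FPKM, knockout to control, were 0.635, 0.757 and 0.707. The FGO call held under every alternative and left-out library tried. That in L1C was lost without control replicate 2 (adjusted p = 0.105) and with 1 common spread for all stages (0.0795). The MII call was lost without control replicate 1 or 2 or knockout replicate 1 or 2 (adjusted p 0.0691 to 0.124), with median centring (0.0824), with only the MII libraries fitted (0.0751) and with 1 common spread (0.239). In L2C the difference was 0.51 ± 0.19 (adjusted p = 0.0446). This call was lost without control replicate 1 or 2 or knockout replicate 1 or 3 (adjusted p 0.0805 to 0.223), with only the L2C libraries fitted (0.0724) and with no filter (0.249). The effect in L2C minus that in FGO was 1.12 ± 0.22 (adjusted p = 0.000815), a call that no alternative or left-out library ended. From L1C to E2C Ccnb3 changed by -1.45 ± 0.17 in the control (adjusted p = 4.63e-07) and by -0.92 ± 0.16 in the knockout (adjusted p = 8.13e-05), and the difference of these steps did not pass (0.52 ± 0.23, adjusted p = 0.257). From MII to L1C it rose by 0.44 ± 0.12 in the control and 0.34 ± 0.10 in the knockout. The first call was lost without L1C control replicate 2 (adjusted p = 0.106) or MII control replicate 1 (0.0568), and the second without L1C knockout replicate 3 or MII knockout replicate 1 or 2 (0.0944 to 0.121), and with 1 common spread both were lost (0.12 and 0.203). The control also fell from E2C to L2C (-0.64 on the log2 scale), but not without L2C control replicate 2 (-0.57, adjusted p = 0.0831) or with no filter (0.0569).

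Plk1, the polo-like kinase of mitotic and meiotic entry that also marks EMI2 for destruction, fell in the step from L1C to E2C. Control Plk1 values were 87.4 and 85.8 FPKM in FGO, 89.5 and 86.9 in MII, 78.8 and 74.6 in L1C, 27.9, 30.6 and 24.5 in E2C, and 42.7 and 32.3 in L2C. Knockout Plk1 values were 96.9, 95.8 and 98.6 FPKM in FGO, 88.3, 92.7 and 101 in MII, 94.4, 87.0 and 88.9 in L1C, 33.3, 53.4 and 43.3 in E2C, and 40.4, 39.6 and 46.5 in L2C. The change from L1C was -1.45 ± 0.13 in the control (adjusted p = 7.68e-09) and -1.06 ± 0.12 in the knockout (adjusted p = 3.84e-07), a difference of 0.38 ± 0.17 (adjusted p = 0.272).

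Knockout libraries of Plk1 were above all controls in FGO, L1C and E2C, and the difference passed in E2C alone (0.61 ± 0.15, adjusted p = 0.00883). It was 0.16 ± 0.09 in FGO (adjusted p = 0.236) and 0.23 ± 0.09 in L1C (adjusted p = 0.0787), and whether the E2C effect differs from the one in L1C is the test just given. The E2C call was lost without knockout replicate 2, the library at 53.4 FPKM (0.45, adjusted p = 0.0649), and with only the E2C libraries fitted (0.062). In the control, Plk1 rose from E2C to L2C by 0.42 ± 0.15 (adjusted p = 0.0259), a call lost without E2C control replicate 1 or 3 or L2C control replicate 1 (adjusted p 0.052 to 0.336) and with another scaling or centring (0.075 to 0.397). Of the words of 50 bases in Plk1, 6.56% occur in Plk-ps1, which was at 0.519 to 5.56 FPKM.

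Fbxo43, whose product EMI2 keeps the egg in metaphase II, was held through fertilization and fell in the step from E2C to L2C. Control Fbxo43 values were 38.8 and 39.2 FPKM in FGO, 40.1 and 38.5 in MII, 46.8 and 51.1 in L1C, 52.2, 53.1 and 54.1 in E2C, and 16.9 and 19.4 in L2C. Knockout Fbxo43 values were 31.2, 34.3 and 33.6 FPKM in FGO, 35.9, 35.1 and 43.1 in MII, 42.8, 41.6 and 41.0 in L1C, 50.2, 51.6 and 48.9 in E2C, and 20.5, 18.5 and 23.6 in L2C. The change to L2C was -1.501 ± 0.14 in the control (adjusted p = 1.36e-08) and -1.24 ± 0.13 in the knockout (adjusted p = 7.82e-08). The control rose from MII to L1C (0.31 ± 0.08, adjusted p = 0.0084), but not past the threshold without L1C control replicate 2 (0.124) or MII control replicate 2 (0.066) or with 1 common spread (0.0654). Knockout libraries were below all controls in FGO, L1C and E2C.

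For Fbxo43 only the FGO difference passed, at -0.24 ± 0.08 (adjusted p = 0.0499), and the margin is slight. Leaving out any one of the 5 FGO libraries ended the call (adjusted p 0.0681 to 0.232), as did 8 of the 9 alternative settings, the exception being a pseudocount of 0.1. The effect in L2C exceeded that in FGO by 0.42 ± 0.15 (adjusted p = 0.0402). This was lost without FGO control replicate 1 or 2, FGO knockout replicate 1 or 3, L2C control replicate 1, or L2C knockout replicate 1 or 3 (adjusted p 0.0511 to 0.228), with no filter (0.186), with median centring (0.135) and with only these stages fitted (0.0614).

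The genes around these 10 were counted by module, each module holding its members among the 10, and called at the same threshold. The share called in the 8 modules ran from 0% to 25.0% in FGO (13.9% of all genes), 0% to 33.3% in MII (16.8%), 0% to 3 of 6 genes in L1C (17.6%), 0% to 33.3% in E2C (13.5%) and 25.0% to 57.1% in L2C (34.2%), so the all-gene share lay within the modules' range at each stage. No set test was run, and a range over 8 modules cannot tell whether any single module differed from all genes. Of 10 genes of the cyclic AMP module, 0 were higher and 1 lower in knockout FGO, 0 and 2 in MII, 0 and 1 in L1C, 1 and 1 in E2C, and 2 and 1 in L2C. The most called was 3 of 10, in L2C, beside 34.2% of all genes, and the module's median difference lay between -0.11 and 0.13, beside medians between 0 and 0.03 over all genes. Prkar2b, a regulatory subunit of protein kinase A, was the largest change, from 8.63 to 3.49 mean FPKM in FGO (-1.11 ± 0.14, adjusted p = 9.54e-06) and from 14.3 to 3.85 FPKM in L1C (-1.67 ± 0.14, adjusted p = 4.09e-08). It was also lower in MII (-0.92 ± 0.13) and E2C (-1.44 ± 0.25). Pde3a, the phosphodiesterase that breaks down cyclic AMP in oocytes, was higher in E2C (0.46 ± 0.13, adjusted p = 0.0217), and Gnas, the stimulatory G protein, was lower in MII (-0.28 ± 0.07) and higher in L2C (0.79 ± 0.13).

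In the CDK1 module, 16 of 17 listed genes were tested, and 1 was higher and 3 were lower in FGO, 0 and 3 in MII, 1 and 2 in L1C, 1 and 3 in E2C, and 5 and 2 in L2C. The shares were 25.0%, 18.8%, 18.8%, 25.0% and 43.8%, beside 13.9%, 16.8%, 17.6%, 13.5% and 34.2% of all genes, and the median difference lay between -0.14 and -0.02. Ccnh, the cyclin of the CDK-activating kinase, was lower in FGO (-0.61 ± 0.20, adjusted p = 0.0435) and in MII (-0.76 ± 0.18, adjusted p = 0.00411), and Wee1, the somatic relative of Wee2, was lower in MII (-0.63 ± 0.13). Cdk7, the partner of cyclin H, was higher in L1C (0.54 ± 0.13). Cdc25c, a relative of Cdc25b, was lower in E2C (-0.79 ± 0.23, adjusted p = 0.0288). In L2C Cks2, a CDK1-binding subunit, was at 204 and 170 FPKM in control and 319, 360 and 301 FPKM in knockout libraries (0.80 ± 0.18), and Mnat1 was lower (-0.92 ± 0.35, adjusted p = 0.0457).

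Of 7 tested genes of the MOS and MAP kinase module, 0 were called in FGO and in MII, 1 was higher in L1C, 1 was higher in E2C, and 3 were higher and 1 lower in L2C. The shares were 0% in FGO (13.9% of all genes) and MII (16.8%), 14.3% in L1C (17.6%) and E2C (13.5%), and 57.1% in L2C (34.2%). Medians lay between 0 and 0.41. Mapk3, the kinase ERK1, was higher in E2C (0.59 ± 0.16, adjusted p = 0.0193) and in L2C, where controls were at 21.1 and 25.4 FPKM and knockout libraries at 49.0, 49.5 and 46.8 FPKM (1.03 ± 0.16, adjusted p = 3.16e-05). The Greatwall module of 8 genes had 1 called in FGO (12.5%, beside 13.9% of all genes), none in MII, L1C and E2C (beside 16.8%, 17.6% and 13.5%), and 1 in each direction in L2C (25.0%, beside 34.2%). Those were Arpp19, the PP2A inhibitor, in FGO (0.52 ± 0.15), and in L2C the Greatwall kinase Mastl (0.89 ± 0.12) and the PP2A catalytic subunit Ppp2cb (-1.11 ± 0.31).

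Of 17 genes of the anaphase-promoting complex and its regulators, 1 was higher and 1 lower in FGO, 3 and 0 in each of MII, L1C and E2C, and 2 and 3 in L2C. The shares were 11.8% in FGO (13.9% of all genes), 17.6% in MII (16.8%), L1C (17.6%) and E2C (13.5%), and 29.4% in L2C (34.2%), with medians between -0.09 and 0.11. Fbxo5 (EMI1), the relative of Fbxo43 that acts in interphase, was higher in E2C (0.66 ± 0.13, adjusted p = 0.00127) and in L2C (0.99 ± 0.12, adjusted p = 2.5e-06), and Cdc20, the coactivator, was higher in E2C (0.65 ± 0.15). Anapc7 was at 20.04 and 20.3 FPKM in control L2C and at 5.82, 5.77 and 4.64 FPKM in knockout L2C (-1.73 ± 0.20, adjusted p = 1.26e-06). Among the 6 spindle checkpoint genes, 2 were higher and 1 lower in L1C, 2 and 0 in E2C, and 1 in each direction in MII and in L2C, with 0 called in FGO, and the 3 of 6 in L1C stand beside 17.6% of all genes. The 33.3% in each of MII, E2C and L2C stands beside 16.8%, 13.5% and 34.2%. Bub1b was higher in L1C, from 59.0 to 120 mean FPKM (1.00 ± 0.14), and in E2C (0.73 ± 0.23, adjusted p = 0.0415). The checkpoint kinase gene Ttk was at 19.1 and 22.9 FPKM in control L2C and at 88.8, 90.9 and 85.5 FPKM in knockout L2C (2.03 ± 0.12, adjusted p = 3.87e-10), and was lower in MII (-0.20 ± 0.07, adjusted p = 0.0427). Bub1 was higher in MII (0.39 ± 0.07, adjusted p = 0.000541), Mad2l1 was lower in L1C (-0.45 ± 0.11), and Bub3 was lower in L2C (-0.69 ± 0.16).

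Of 9 mitotic kinase and chromosomal passenger genes, 0 were called in FGO, 1 was lower in MII and in L1C, 1 was called in each direction in E2C, and 2 were higher and 1 lower in L2C. The shares were 0% in FGO (13.9% of all genes), 11.1% in MII (16.8%) and L1C (17.6%), 22.2% in E2C (13.5%) and 33.3% in L2C (34.2%). Medians lay between -0.24 and 0.10. Aurkb was the gene lower in MII (-0.55 ± 0.16), L1C (-0.60 ± 0.18) and E2C (-1.24 ± 0.30, adjusted p = 0.00915), and its meiotic relative Aurkc was higher in L2C (0.79 ± 0.19). Of 8 cohesin genes, 2 were lower in FGO and 2 in MII, 2 were higher and 1 lower in L1C, 1 was lower in E2C, and 3 were higher and 1 lower in L2C. The shares were 25.0% in FGO (13.9% of all genes) and MII (16.8%), 37.5% in L1C (17.6%), 12.5% in E2C (13.5%) and 4 of 8 genes in L2C (34.2%). Medians lay between -0.13 and 0.20. Sgo2a, the shugoshin that protects centromeric cohesin, was lower in FGO (-0.26 ± 0.08), MII (-0.45 ± 0.07), L1C (-0.61 ± 0.08) and E2C (-1.03 ± 0.14). Smc1b, a meiotic cohesin subunit, was lower in FGO (-0.53 ± 0.14) and MII (-0.50 ± 0.13), and Pttg1, the securin, was higher in L2C (0.77 ± 0.10).

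The genes with courses most like each of the 10 were ranked by Pearson correlation of log2(FPKM + 1) over the 26 early libraries, among 6194 genes, as a description of libraries that share stages. The highest were 0.99 for Mos with Astl, Plat and Slc35b3, and 0.98 for Plk1 with Taf1a and Wdr91 and for Cdc25b with Copz1. Ccnb1 was most like Acat1, Dcaf7 and Dazl (0.97 to 0.95), Ccnb2 most like Rraga, Gfm1 and Rae1 (0.97), and Ccnb3 most like Fetub, Ms4a1 and Cited2 (0.95 to 0.94). Cdk1 was most like Odc1, Mybbp1a and Hinfp (0.96 to 0.95), which were all higher in control L2C than in control FGO (48.0 and 174 mean FPKM for Odc1). Fbxo43 was most like Olah, Ica1 and Mgst3 (0.96), and Wee2 most like Kctd13, Rchy1 and Mtmr2 (0.94 to 0.93). Gpr3 had the weakest likeness to any gene, with Gdap2 at 0.85.

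At embryonic day 6.5 the 10 genes separated into those of the general cell cycle and those of the oocyte. These poly(A) libraries were scaled apart from the early ones, so levels are not compared across them. Ccnb1 ran from 80.2 to 514 FPKM over the 11 libraries, Cdk1 from 85.5 to 288, Ccnb2 from 45.4 to 186 and Plk1 from 40.3 to 157. Cdc25b was at 2.43 to 4.94 FPKM in EPI, 0.345 to 0.976 in VE and 2.22 to 3.797 in EXE. Mos, Wee2, Fbxo43, Gpr3 and Ccnb3 were under 0.5 FPKM in all 11 libraries, and Mos was listed at 0 in 7 of them.

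**Figure D4:**
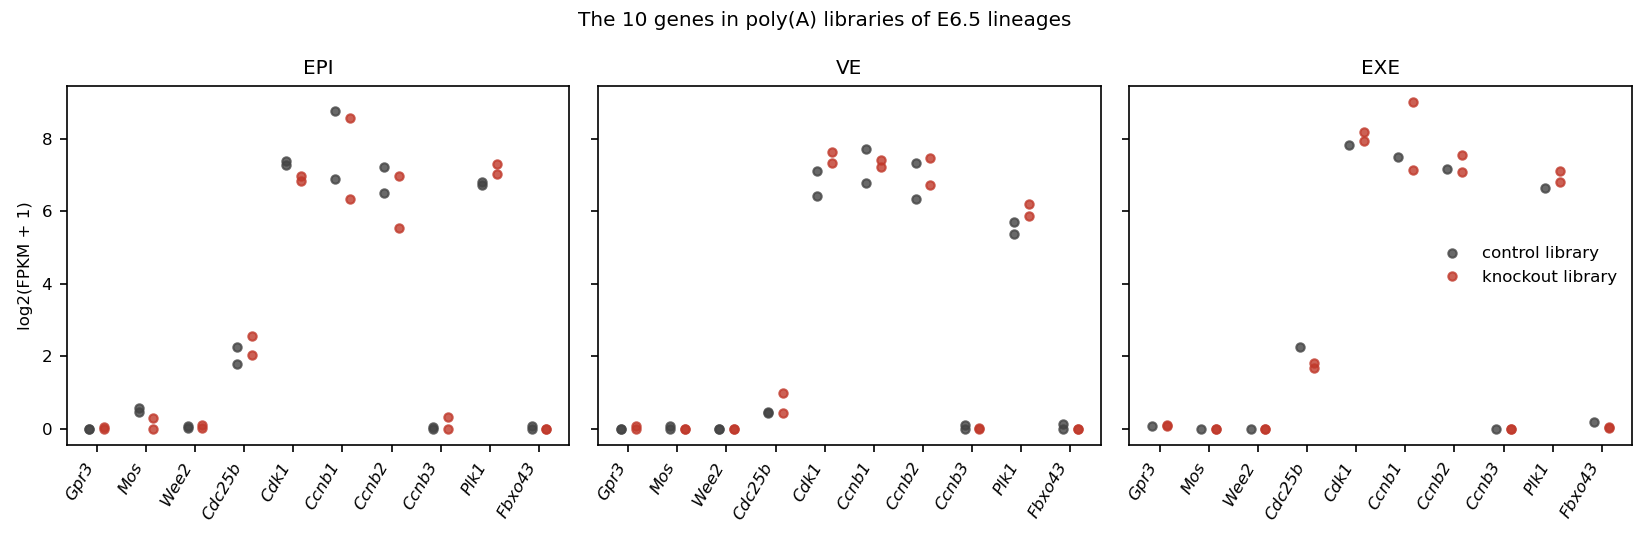
Log2(FPKM + 1) of the 10 genes (x axis) in each poly(A) library of the 3 lineages, with control libraries grey and knockout libraries red. Ccnb1, Ccnb2, Cdk1 and Plk1 lie between 40.3 and 514 FPKM, Cdc25b lies under 5 FPKM, and the other 5 genes are near 0.

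Of the 10 genes, 5 passed the filter in the EPI and VE fit, where limma called 0 of these 5 in either lineage, beside 0% of 13376 genes in EPI and 0.00748% in VE, with Benjamini-Hochberg adjustment. At an unadjusted p under 0.05 there were 306 genes in EPI and 170 in VE. Plk1 was at 104 and 111 FPKM in control and 131 and 157 FPKM in knockout EPI, and at 50.9 and 40.3 FPKM in control and 72.8 and 57.6 FPKM in knockout VE. In EXE, which has 1 control and no test, it was at 98.7 FPKM in control and 110 and 139 FPKM in knockout libraries. These knockout values were above the control values in each lineage, without passing the test in EPI (0.41 ± 0.32) or VE (0.51 ± 0.32). The share of all genes that separate in this way was not counted at this age, so no effect is read from it. For Cdk1 the estimates were -0.42 ± 0.34 in EPI and 0.71 ± 0.34 in VE, and neither passed. The 5 visceral endoderm markers summed to 7.13 to 8.67 FPKM in control EPI and 1.77 to 4.46 FPKM in knockout EPI. In VE they summed to 7738 to 8059 FPKM in control and 6805 to 6925 FPKM in knockout libraries. The 5 epiblast markers summed to 141 to 169 FPKM in control VE and 199 to 231 FPKM in knockout VE. In EPI their sum was 1167 to 1701 FPKM in control and 1835 to 1842 FPKM in knockout libraries. The 5 extraembryonic ectoderm markers summed to 12.3 to 13.9 FPKM in control VE and 19.9 to 28.5 FPKM in knockout VE, and overlapped in EPI. The part of these markers in the values above was not tested. Bap1 was at 14.1 to 22.6 FPKM in control EPI and at 21.8 and 33.8 FPKM in knockout EPI, and at 14.02 and 15.6 FPKM in control VE and 18.3 and 19.4 FPKM in knockout VE.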

How the data were processed

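Genotype, stage and replicate were taken from the sample titles. The deposited values are FPKM, made by the authors, in 1 table of 26 total RNA libraries and 1 of 11 poly(A) libraries. The submitters' processing notes name Trim Galore 0.6.6, STAR 2.7.9, StringTie 2.1.7 and the build mm10, without roles or order. Annotation, filters and use of strand in counting are not given in the sources used here. The deposited column of control epiblast replicate 1 has 1 negative value, for Gm24888, so its unit was recorded as other, and that value was set to 0. FPKM keeps no read depth, and the number of libraries limits the precision.

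Genes that reached 1 FPKM in 2 or more libraries were fitted with limma 3.58.1 in R 4.3.3 on log2(FPKM + 1), with group means, an intensity trend and, for the early stages, 1 weight per stage, since E2C libraries spread more (median SD within groups 0.26, against 0.11 to 0.21 at the other stages). EPI and VE were fitted apart, without weights. Differences of the knockout effect were interaction contrasts. The code was tested on simulated data. The 10 genes, the modules and the markers were chosen with earlier results of these data known. All 10 genes are named. Of each module, the genes named are among the 2 with the largest change called in each comparison, and for likeness the 3 highest correlations, among genes that reached 10 FPKM in 2 or more libraries and without predicted models. Same-numbered libraries correlated between -0.08 and 0.14 at the early stages, so the numbers were not taken to pair them. Positions and 3′ UTRs are from GENCODE M21, promoters from RefSeq (GRCm38.p6). Tables and plots were made in Python 3.11.15 with pandas 2.3.3, and matplotlib 3.10.9 drew the plots.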

Additional observations from a re-analysis of the deposited data

Results flagged for a closer look

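These differences of the knockout effect between stages passed limma's interaction test with Benjamini-Hochberg adjustment, and each is the later effect minus the earlier one on the log2(FPKM + 1) scale. Between L1C and E2C it was -0.79 for Cdk1 (adjusted p = 0.0287). Between E2C and L2C it was 0.69 for Cdc25b (0.0168) and -0.93 for Gpr3 (0.0287), and the Gpr3 effect was positive in E2C and negative in L2C. Between FGO and L2C it was 1.12 for Ccnb3 (0.000815), 0.62 for Cdc25b (0.00545), -0.62 for Cdk1 (0.0166), 0.42 for Fbxo43 (0.0402) and 1.05 for Mos (0.0376). Of these, only the Ccnb3 difference kept its call under every alternative and without each library in turn. All genes called for these contrasts were 3.35%, 18.9% and 29.8% of those tested.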

How the results depend on the processing

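Of 192 counts of the 10 genes called, each under an alternative setting, 25 moved by over 1.5 times and 52 others differed from the reported count by 1 or 2 genes. Among the latter, calls from MII to L1C in the control went from 6 to 4 with a pseudocount of 0.1, and those from E2C to L2C in the control from 9 to 7 with no filter. Over all genes, these calls went from 3862 to 3525 and from 7851 to 8074. Those that moved by over 1.5 times were as follows. With no filter, 3 passed between genotypes in L2C, and for the difference of effects 0 between E2C and L2C and 2 between FGO and L2C. Over all genes, the calls with no filter were 3841, 2183 and 3020, against 5197, 2872 and 4521 in the reported fit. With each library scaled to the same sum (TPM scaling), 2 passed in MII, 7 from L1C to E2C in the control, and 1 for the difference between E2C and L2C. Over all genes these calls were 2567, 7362 and 2420, against 2545, 7165 and 2872 in the reported fit. With median centring, 3 passed in MII, 1 from FGO to MII in the control and 5 in the knockout, and 6 from MII to L1C in the knockout. Over all genes these calls were 3301, 640, 2250 and 3049, against 2545, 819, 2102 and 2491 in the reported fit. With median centring the 3 in MII were Ccnb2, Cdc25b and Wee2, all higher in the knockout. Ccnb3, the 1 called in MII in the reported fit and lower there, was not among them. With 1 common spread, 1 passed in FGO, 0 in MII, 0 in L1C and 5 in E2C, 1 from FGO to MII in the knockout, and 2 and 1 from MII to L1C in control and knockout. Calls over all genes moved in the same directions. They were 903 in FGO, 895 in MII, 1176 in L1C and 4407 in E2C, against 2107, 2545, 2675 and 2046 in the reported fit. For the stage changes they were 536, 1658 and 866, against 2102, 3862 and 2491. With only the stages compared in the fit, 1 passed in FGO, 0 in MII, 1 in L1C, 1 in E2C, 1 from FGO to MII in the control, and 0 for the difference between L1C and E2C. Over all genes these calls were 964, 1364, 1657, 1193, 499 and 154, against 2107, 2545, 2675, 2046, 819 and 509 in the reported fit.

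The change of Wee2 from FGO to L2C in the control turned to -0.25 with TPM scaling. With the replicate number as a replicate block, the counts that moved by over 1.5 times were 0 for the difference between L1C and E2C and 3 for that between FGO and L2C. Over all genes these calls were 173 and 3400, against 509 and 4521 in the reported fit. The block also gave 2 calls in FGO, 2 in L1C, 4 from MII to L1C in the control and 7 from L1C to E2C in the knockout. Over all genes these calls were 1760, 2251, 3831 and 6307, against 2107, 2675, 3862 and 6336 in the reported fit. Calls not past the threshold with the block were those of Mos in L2C (adjusted p = 0.0603), Ccnb1 in L1C (0.0866), Fbxo43 in FGO (0.051), Cdc25b (0.0598) and Cdk1 (0.0583) from MII to L1C in the control, Cdc25b from FGO to MII in the knockout (0.052), and the differences of effect of Cdk1 between L1C and E2C (0.102) and of Mos (0.0787) and Fbxo43 (0.1004) between FGO and L2C. Calls gained were Gpr3 in L2C (-0.58, 0.028) and, in the knockout, Fbxo43 from FGO to MII (0.0445) and from L1C to E2C (0.0482). The labels do not say that numbers pair libraries. In EPI and VE, same-numbered libraries correlated at 0.59 and 0.43 over 2 pairs. With the block 0 genes of the 10 passed, beside 4 of all genes in EPI and 1 in VE.

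Leaving out each library in turn gave 1 to 2 calls in FGO, 0 to 1 in MII, 1 to 3 in L1C, 1 to 3 in E2C and 3 to 5 in L2C. Over all genes the calls ran from 1164 to 2143 in FGO, 1543 to 2670 in MII and 1421 to 2611 in L1C. They ran from 1274 to 1812 in E2C and from 3649 to 5074 in L2C. For stage changes, leaving out libraries gave 1 to 3 from FGO to MII in the knockout, and 2 to 4 and 1 to 4 from MII to L1C in control and knockout. Over all genes these calls ran from 1394 to 1952, 2434 to 3034 and 1664 to 2673. For differences of effect, leaving out libraries gave 0 to 1 between MII and L1C, 0 to 1 between L1C and E2C, 0 to 3 between E2C and L2C, and 2 to 5 between FGO and L2C. Over all genes these calls ran from 3 to 82, 257 to 511, 2043 to 2732 and 3092 to 4558. Depth is unknown for FPKM, so counting error could not be separated from the spread of libraries. Module counts, recomputed with median centring and with 1 common spread, moved by over 1.5 times in 32 of 80 cases for the genotype differences of the early stages and in 75 of 336 over all comparisons.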
